A study of Mus musculus with 30 samples.

Results

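Cytosine methylation of DNA is a heritable mark that silences transposons, imprinted loci and germline genes. DNMT1 copies the mark onto the new strand after replication, and UHRF1 brings DNMT1 to hemimethylated CpG sites. DNMT3A and DNMT3B set methylation at unmethylated sites, and DNMT3L, which has no catalytic activity of its own, stimulates them in germ cells. The TET dioxygenases TET1, TET2 and TET3 oxidise methylated cytosine, which can lead to its loss through dilution at replication or through base excision repair. Male germ cells regain their methylation before birth, and spermatogonial stem cells (SSCs) then have to keep it through many divisions.

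The genes examined were the 8 mouse genes for these enzymes and cofactors, *Dnmt1*, *Uhrf1*, *Dnmt3a*, *Dnmt3b*, *Dnmt3l*, *Tet1*, *Tet2* and *Tet3*. They were chosen by name. All 8 were among the 13904 genes of the RNA-seq table, and 6 of them were among the 5806 transcripts with a fitted half-life. *Dnmt3l* and *Tet1* had no half-life.

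The samples were SSC lines derived from testes at postnatal day 7 (P7). The mice were DBA/2J x C57Bl/6 hybrids with the *Nanos2*TAG allele, which encodes NANOS2, an RNA-binding protein of undifferentiated spermatogonia, fused to V5, c-myc, PreScission, His and EGFP tags. One library of total RNA, depleted of ribosomal RNA, came from line 4, which was heterozygous (*Nanos2*TAG/+), and 1 from line 5, which was homozygous (*Nanos2*TAG/TAG). Each genotype was represented by a single line, and no untagged line was used here. SLAM-seq followed the loss of 4-thiouridine label over 6 chase times (0, 30, 60, 120, 540 and 1440 min) with 12 libraries for each of the same 2 lines, and gave 1 half-life per transcript and line. The lines were grown on mouse embryonic fibroblast feeders, from which the SSCs were separated before extraction. Per the labels, RNA for RNA-seq was extracted with QIAzol in the TAG/+ line and with Trizol in the TAG/TAG line. Genotype, line and extraction reagent therefore cannot be told apart, and with 1 value per line no test between lines was possible.

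The RNA-seq columns are named GG and Gp, read here as TAG/TAG and TAG/+, and the half-life tables are tied to a line by their names alone, while the SLAM-seq labels call them CTL and EXP. If the first reading were wrong, the directions in FPKM would turn, and if the second were wrong, those in half-life would. Whole reads recovered from FPKM summed to 10977831 in the TAG/+ library and 11656606 in the TAG/TAG library. All intervals given for reads, FPKM and folds of FPKM are exact 95% intervals of counting error only. The half-lives came without an error. Of the markers of undifferentiated spermatogonia, 13 of 14 had an FPKM, with medians of 46.0 (TAG/+) and 96.5 (TAG/TAG). Their median log2 ratio was 0.42, with 7 higher and 6 lower in TAG/TAG. All 6 markers of differentiating spermatogonia had an FPKM, with medians of 17.9 and 11.5. Markers of other cells also differed. An FPKM was present for 11 of 12 fibroblast markers, 4 of 8 Sertoli and Leydig cell markers and 4 of 6 pluripotent cell markers. Their summed FPKM was 343 and 434, 9.97 and 27.7, and 28.7 and 22.6. None of the markers with an FPKM was at 0 in either line, and no gene was listed with 0 in both. The part of the markers in the values below was not tested. In RNA from bulk cultures, fewer cells of a type and less RNA per cell cannot be told apart.

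Of the 6 fitted transcripts, *Dnmt1*, *Uhrf1*, *Dnmt3a* and *Dnmt3b* had half-lives above the median in both lines, and *Tet2* and *Tet3* below it. Half-lives were measured from reads at the 3′ end. The 3′ untranslated regions (UTRs) are therefore shown first. They were taken from the longest protein-coding transcript of each gene that has an annotated 3′ UTR in GENCODE M21 (GRCm38). The miR-29 family is a microRNA family with well-known sites in *Dnmt3a*, *Dnmt3b* and *Tet* messages. Its 3 mature mouse members, from RefSeq on GRCm38.p6, share 1 seed, printed in capitals (bases 2 to 8).

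mmu-miR-29a-3p: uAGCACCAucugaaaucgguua
mmu-miR-29b-3p: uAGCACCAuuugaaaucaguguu
mmu-miR-29c-3p: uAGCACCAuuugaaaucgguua

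The match to this seed is TGGTGCT on the sense strand of the transcript. It occurred 5 times in the 6696 bases of the *Dnmt3a* 3′ UTR, once in the 1331 bases of *Dnmt3b*, 7 times in the 7955 bases of *Tet1*, 5 times in the 3058 bases of *Tet2* and 8 times in the 5669 bases of *Tet3*. It was not in the short 3′ UTRs of *Dnmt1* (312 bases), *Dnmt3l* (273 bases) or *Uhrf1* (984 bases). Of 3′ UTRs between 0.8 and 1.25 times as long, 46.6% of 507 held a match for *Dnmt3a*, 12.3% of 3054 for *Dnmt3b*, 51.0% of 304 for *Tet1*, 27.1% of 2357 for *Tet2* and 43.6% of 767 for *Tet3*. As many matches or more were in 0.592% of these regions for *Dnmt3a*, 0.0424% for *Tet2*, and in 0 of the 304 and 0 of the 767 for *Tet1* and *Tet3*. The matches nearest to the stop codon are shown with 10 bases on either side and the match in capitals.

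*Dnmt3a*, chr12:3908562-3908588, plus strand: gacttcataaTGGTGCTttcaaaacag
*Dnmt3a*, chr12:3908989-3909015, plus strand: caaaatgtacTGGTGCTttctgtctaa
*Dnmt3b*, chr2:153686617-153686643, plus strand: tagcccggcaTGGTGCTcatgttctct
*Tet1*, chr10:62812200-62812226, minus strand: ccatagagtcTGGTGCTttcccccggg
*Tet1*, chr10:62812099-62812125, minus strand: acacagttccTGGTGCTttaaccacat
*Tet2*, chr3:133466323-133466349, minus strand: caggatcatcTGGTGCTgacgtatgat
*Tet2*, chr3:133466164-133466190, minus strand: taacattaaaTGGTGCTacaaatggtg
*Tet3*, chr6:83367975-83368001, minus strand: agctgctctgTGGTGCTtttgccctca
*Tet3*, chr6:83367007-83367033, minus strand: cggtgctgtgTGGTGCTggagcctggt

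Further short motifs were searched on the sense strand. The AU-rich heptamer TATTTAT, a core of elements bound by decay factors, occurred 3 times in *Tet1*, 2 times in *Tet2*, 4 times in *Tet3*, once in *Dnmt3a* and 0 times in the other four. Of 3′ UTRs of like length, 81.6%, 54.4% and 70.3% held it for *Tet1*, *Tet2* and *Tet3*, and 29.9%, 23.0% and 9.52% held as many or more. In *Tet2* and *Tet3* one copy lay close to the annotated end, 18 and 21 bases from it counted from its first base. Both copies are shown for this position. *Dnmt3a*, with 1 copy and 5 miR-29 matches, had half-lives of 352 min (TAG/+) and 344 min (TAG/TAG). A link between motifs and half-lives was not tested.

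*Tet2*, chr3:133463680-133463706, minus strand: ataaaatttaTATTTATttaatgcact
*Tet3*, chr6:83362377-83362403, minus strand: ataaattttaTATTTATtttttgcact

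The Pumilio octamer TGTANATA was found 3 times in *Tet1*, once in *Tet2*, 3 times in *Tet3*, once in *Dnmt3a* and in none of the others. Among 3′ UTRs of like length, 75.66%, 46.12%, 66.36% and 73.77% held it for *Tet1*, *Tet2*, *Tet3* and *Dnmt3a*. As many matches or more were in 26.64%, 46.12%, 16.04% and 73.77% of them, in the same order. The NANOS2 consensus was searched in 4 spellings, first as the heptamer ATGAAAT, next as the heptamer ATGAATT, then as the heptamer ATTAAAT and last as the heptamer ATTAATT. It had 4 matches in *Tet1*, 5 in *Tet2*, 2 in *Tet3* and 1 in *Uhrf1*, and 0 in *Dnmt1*, *Dnmt3a*, *Dnmt3b* and *Dnmt3l*. The consensus was in 37.85% of 3′ UTRs of like length for *Uhrf1*, 19.04% for *Dnmt1*, 46.2% for *Dnmt3b* and 15.7% for *Dnmt3l*. The 6696 bases of *Dnmt3a* lacked it where 91.1% of 3′ UTRs of like length held it, with a median of 3 matches. *Tet2* had more than its like-length median of 1, and 7.09% of those regions had 5 or more. *Tet1* equalled its median of 4, and *Tet3* was below its median of 3. The *Uhrf1* match and the first *Tet2* match, which overlaps by its last base the second miR-29 match of *Tet2* shown above, are as follows.

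*Uhrf1*, chr17:56323246-56323272, plus strand: ggtttcctcgATGAATTtcttttgtag
*Tet2*, chr3:133466170-133466196, minus strand: gggtgttaacATTAAATggtgctacaa

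These are matches of letters in annotated regions. Of all 21020 3′ UTRs, 12.9% held TGGTGCT, 27.4% TATTTAT, 23.2% TGTANATA and 39.4% the NANOS2 consensus. Which 3′ ends the SSC lines use, the level of miR-29 and the binding of NANOS2 to these messages were not analysed here.

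**Figure D1:**
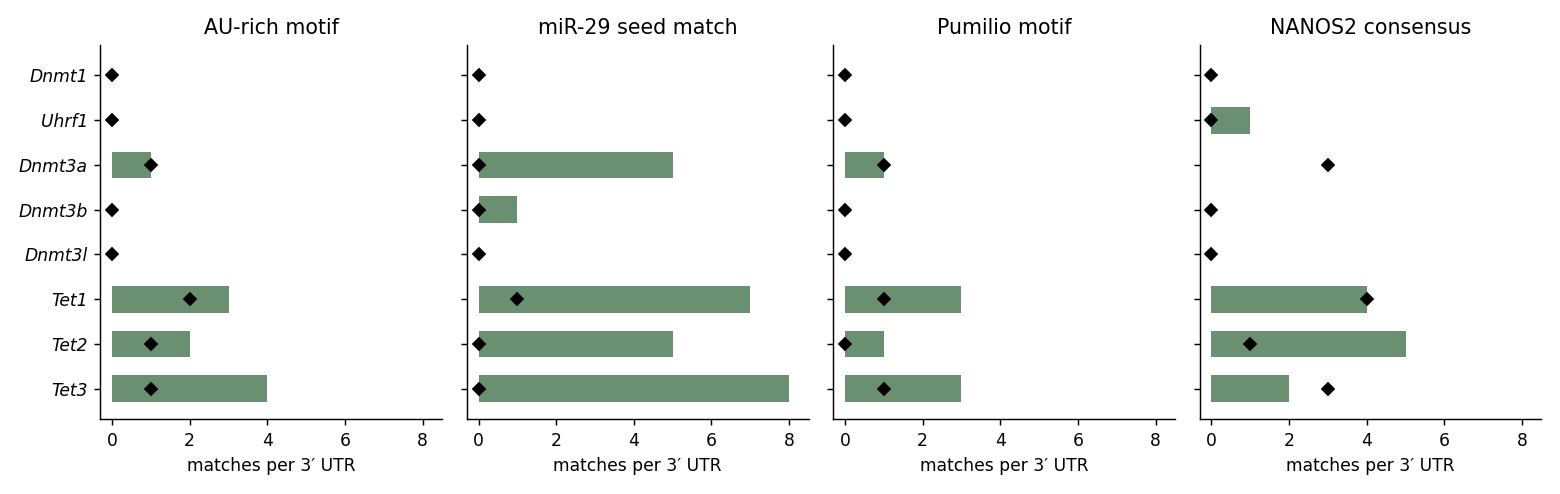
Number of matches to 4 short motifs in the annotated 3′ UTR of each gene (bars), with the median number in 3′ UTRs of 0.8 to 1.25 times its length (diamonds). The miR-29 matches of *Tet1*, *Tet2*, *Tet3* and *Dnmt3a* (7, 5, 8 and 5) lie far above the like-length medians of 1, 0, 0 and 0.

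The level of the 8 transcripts was considered next. FPKM divides the reads of a gene by its length, so it allows a comparison between genes as far as the length is right. Recovered reads and FPKM tied the deposited values to the mean length of all annotated transcripts of a gene, short non-coding ones included. Levels were therefore also set to the length of the longest protein-coding transcript.

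The maintenance pair led the list. *Dnmt1* (ENSMUSG00000004099, chr9:20907209-20959888, minus strand) had an FPKM of 241 in the TAG/+ library (9220 reads) and 278 in the TAG/TAG library (11461 reads). These levels exceeded those of 96.7% and 97.4% of genes. The TAG/TAG value was 1.15-fold higher (interval 1.12 to 1.19). *Uhrf1* (ENSMUSG00000001228, chr17:56303321-56323486, plus strand) stood at 115 in the TAG/+ library (2824 reads) and 181 in the TAG/TAG library (4788 reads), above 91.9% and 95.6% of genes. Its TAG/TAG value was 1.58-fold higher (interval 1.504 to 1.65), so the ratio of *Dnmt1* to *Uhrf1* was 2.10 in one line and 1.54 in the other. The annotated locus *Gm5648* shares 14.7% of the distinct 50-base stretches of the *Uhrf1* transcripts, and reads from those stretches cannot be assigned with certainty. Together *Dnmt1* and *Uhrf1* made up 73.5% (TAG/+) and 81.1% (TAG/TAG) of the summed FPKM of the 8 genes.

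The de novo enzymes were both lower in the TAG/TAG library. *Dnmt3a* (ENSMUSG00000020661, chr12:3806007-3914443, plus strand) had an FPKM of 66.7 (TAG/+, 1691 reads) and 43.7 (TAG/TAG, 1191 reads), a 1.53-fold lower value in TAG/TAG (interval 1.42 to 1.65). *Dnmt3b* (ENSMUSG00000027478, chr2:153649450-153687730, plus strand) had 23.4 (903 reads) and 18.4 (765 reads), 1.27-fold lower in TAG/TAG (interval 1.15 to 1.40). The paralog *Dnmt3c*, which methylates young transposons in the male germ line, shares 9.81% of the 50-base stretches of *Dnmt3b*, so part of the *Dnmt3b* reads may belong to it. *Dnmt3c* itself was not analysed here. The cofactor *Dnmt3l* (ENSMUSG00000000730, chr10:78041947-78063622, plus strand) was close to the bottom of the list, at 2.67 (35 reads) and 2.05 (29 reads), above 25.9% and 20.4% of genes. Its ratio was 0.770 with an interval of 0.454 to 1.30 that includes equal levels. *Aire* overlaps the *Dnmt3l* locus over 1664 bases on the opposite strand.

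Among the *Tet* genes, one transcript carried nearly all of the signal. *Tet3* (ENSMUSG00000034832, chr6:83362373-83459084, minus strand) had an FPKM of 32.3 (1739 reads) in the TAG/+ library and 39.3 (2275 reads) in the TAG/TAG library, 1.22-fold higher in TAG/TAG (interval 1.14 to 1.30). *Tet2* (ENSMUSG00000040943, chr3:133463679-133545139, minus strand) stood at 2.36 (91 reads) and 2.15 (89 reads), with a ratio of 0.909 and an interval of 0.671 to 1.23. *Tet1* (ENSMUSG00000047146, chr10:62804570-62908996, minus strand), an enzyme best known from embryonic stem cells and primordial germ cells, had the lowest level of the 8, at 0.646 (24 reads) and 1.53 (61 reads). *Tet3* held 91.5% of the summed FPKM of the 3 genes in the TAG/+ library and 91.4% in the TAG/TAG library. It was 13.7-fold and 18.3-fold above *Tet2*, and 49.99-fold and 25.7-fold above *Tet1*. With the length of the longest coding transcript, explained below, it was 16.1-fold and 21.5-fold above *Tet2*, and 95.5-fold and 49.1-fold above *Tet1*, which rested on 24 and 61 reads.

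**Figure D2:**
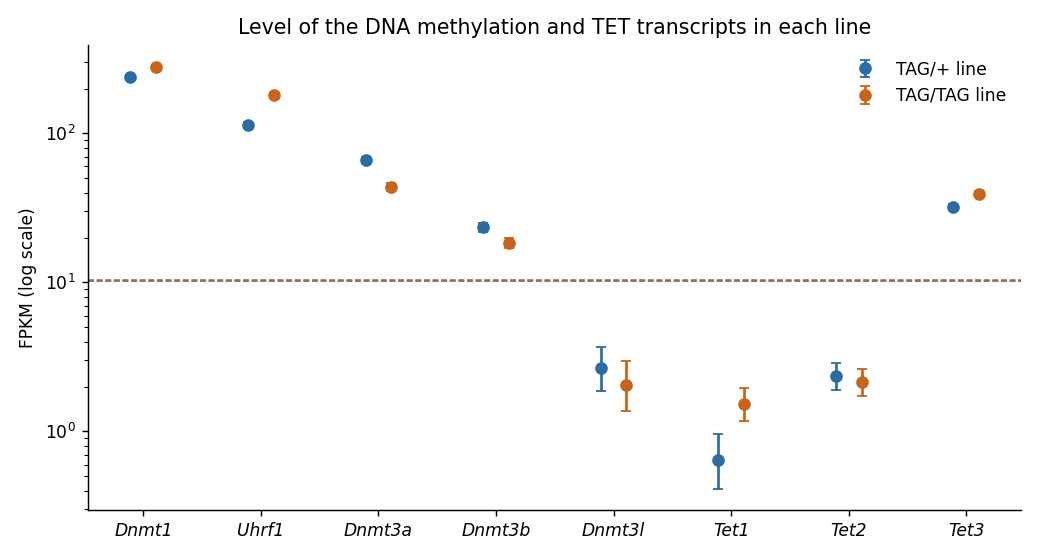
FPKM on a log axis for each gene in the TAG/+ library (blue) and the TAG/TAG library (orange). Bars are exact 95% intervals of counting error, and dashed lines mark the median gene of each library (10.2 and 10.5). *Dnmt1* and *Uhrf1* lie above 100 in both libraries, whereas *Dnmt3l*, *Tet1* and *Tet2* lie below the median gene.

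By mean FPKM as deposited the order was *Dnmt1* (259), *Uhrf1* (148), *Dnmt3a* (55.2), *Tet3* (35.8), *Dnmt3b* (20.9), *Dnmt3l* (2.36), *Tet2* (2.25) and *Tet1* (1.09). Neighbouring places of *Dnmt3l* and *Tet2* could not be told apart by counting error, since the *Tet2* intervals were 1.90 to 2.90 and 1.72 to 2.64 and those of *Dnmt3l* 1.86 to 3.71 and 1.38 to 2.95. *Dnmt3a* has 18 annotated transcripts with a mean length of 2324 bases, while the longest coding one has 9685 bases. *Tet1* has a mean of 3405 against 14369 bases, and *Tet3* one of 4935 against 10904. When the length of the longest coding transcript was used instead, the mean FPKM of *Dnmt3a* was 13.2, that of *Dnmt3b* 17.1 and that of *Tet3* 16.2, so *Dnmt3a* moved from above to below *Dnmt3b*. *Dnmt1* (155) and *Uhrf1* (93.0) kept the first places, and *Dnmt3l* (1.56), *Tet2* (0.867) and *Tet1* (0.257) the last ones. With that length *Tet3* was the highest of the middle genes in the TAG/TAG library (17.8, against 15.1 for *Dnmt3b* and 10.5 for *Dnmt3a*) and the lowest of them in the TAG/+ library (14.6, against 19.2 and 16.01). By the mean of both libraries, the order within *Dnmt3a*, *Dnmt3b* and *Tet3* thus depends on the length, and that of the rest does not. In the TAG/TAG library alone, *Tet2* (2.146) stood just above *Dnmt3l* (2.055) as deposited. With the longest coding length it was below, at 0.826 against 1.356.

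**Figure D3:**
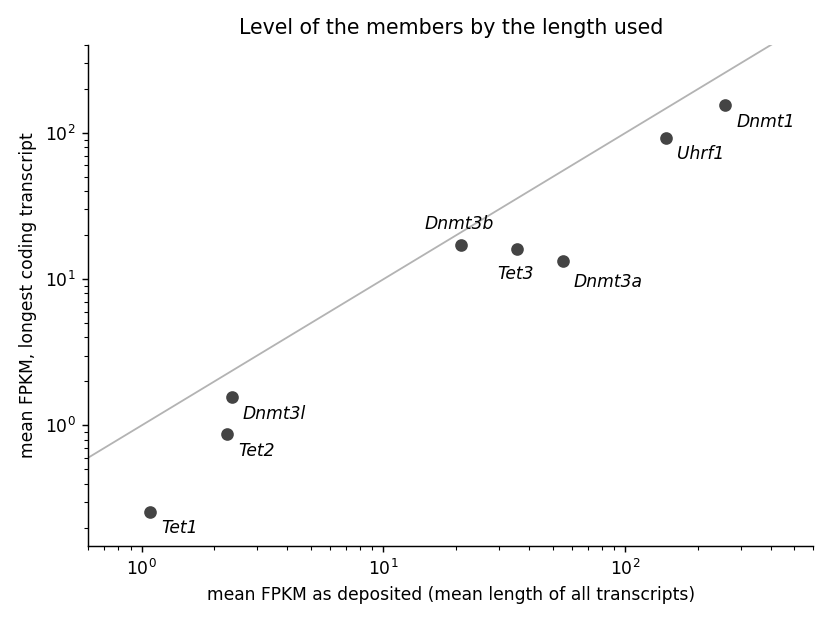
Mean FPKM of both libraries as deposited (x axis) and after use of the length of the longest protein-coding transcript (y axis), on log axes, with a grey line of equal values. *Dnmt3a* drops from 55.2 to 13.2 and falls below *Dnmt3b* (17.1) and *Tet3* (16.2).

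Differences between the lines were read against all genes. Taking log2 of the FPKM ratio after adding 0.1 to each value, 11.7% of the 12546 genes with a mean FPKM of at least 1 were more than 2-fold higher in the TAG/TAG library and 8.67% more than 2-fold lower. All 8 genes passed that minimum. *Tet1* was past 2-fold, with a log2 ratio of 1.12 (TAG/TAG over TAG/+), and 1 of 8 is close to the share among all genes. With a pseudocount of 1 its log2 ratio was 0.62, below that of *Uhrf1* (0.65), and with the longest coding length it was 0.87, so no member was then past 2-fold. Its unadjusted ratio of 2.36 had an interval of 1.45 to 3.96. The other ratios were 0.66 for *Uhrf1*, 0.28 for *Tet3*, 0.21 for *Dnmt1*, -0.13 for *Tet2*, -0.34 for *Dnmt3b*, -0.36 for *Dnmt3l* and -0.61 for *Dnmt3a*. Of the genes with a mean FPKM of at least 1, 64.9% had a smaller difference in either direction than *Uhrf1*, and 62.1% a smaller one than *Dnmt3a*. The median log2 ratio of the 8 was 0.04 beside 0.00 over those 12546 genes.

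Half-lives were available for 6 of the genes, as the values the authors fitted. The median over all 5806 transcripts was 224 min in the TAG/+ line (quartiles 162 and 289 min) and 226 min in the TAG/TAG line (quartiles 159 and 300 min). The 3 *Dnmt* genes with a value and *Uhrf1* were above the median in both lines. *Uhrf1* in TAG/+, *Dnmt3b* in TAG/TAG and, on the other side, *Tet3* in TAG/+ lay within the quartiles of their line. *Dnmt1* had the longest half-life of the members, 473 min in the TAG/+ line and 420 min in the TAG/TAG line, longer than 94.0% and 88.7% of transcripts. *Dnmt3a* followed with 352 and 344 min, longer than 86.2% and 82.0%. *Dnmt3b* had 349 min in the TAG/+ line and 245 min in the TAG/TAG line, longer than 85.86% and 57.65%. *Uhrf1* had 275 and 318 min, longer than 70.46% and 78.57%. The order of *Dnmt3b* and *Uhrf1* was thus opposite in the 2 lines.

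The *Tet* transcripts were on the other side of the median. *Tet3* had a half-life of 174 min in the TAG/+ line and 127 min in the TAG/TAG line, longer than 29.0% and 16.1% of transcripts. *Tet2* had 87.9 min in the TAG/+ line, longer than 3.98% of transcripts. Its TAG/TAG value was 27.0 min, and 5 of the 5806 transcripts had a shorter one. That value is under the first chase time of 30 min, which holds for 10 values of the TAG/TAG line, *Tet2* included, and for 0 of the TAG/+ line. In all, 2 of the 6 members, *Tet2* and *Tet3*, were below the median in both lines, beside 39.8% of all transcripts. In either line *Tet2* and *Tet3* had the shortest half-lives of the 6 members, an order of few genes that was not set against other genes. The share of all transcripts above the median in both lines was not counted. Each median splits the transcripts evenly, so that share must also be about 39.8%.

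Low transcripts had shorter fitted half-lives in general, so the 5152 transcripts that also had an FPKM were ordered by mean FPKM, cut into 10 classes of 515 or 516, and each member was set beside its own class. The class that holds *Tet2* had medians of 149 and 152 min, and 14.2% (TAG/+) and 0.775% (TAG/TAG) of its transcripts had shorter half-lives than *Tet2*. The class of *Tet3* had medians of 228 and 231 min, with 21.4% and 10.1% of transcripts shorter than *Tet3*. *Dnmt3b* exceeded the medians of its class, 202 and 209 min, and *Dnmt3a* those of its own, 240 and 241 min. *Dnmt1* exceeded the medians of 339 and 365 min of the most abundant class. *Uhrf1* was at 275 against 270 min in the TAG/+ line and 318 against 278 min in the TAG/TAG line. The side of the median was the same for all 6 under this comparison.

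**Figure D4:**
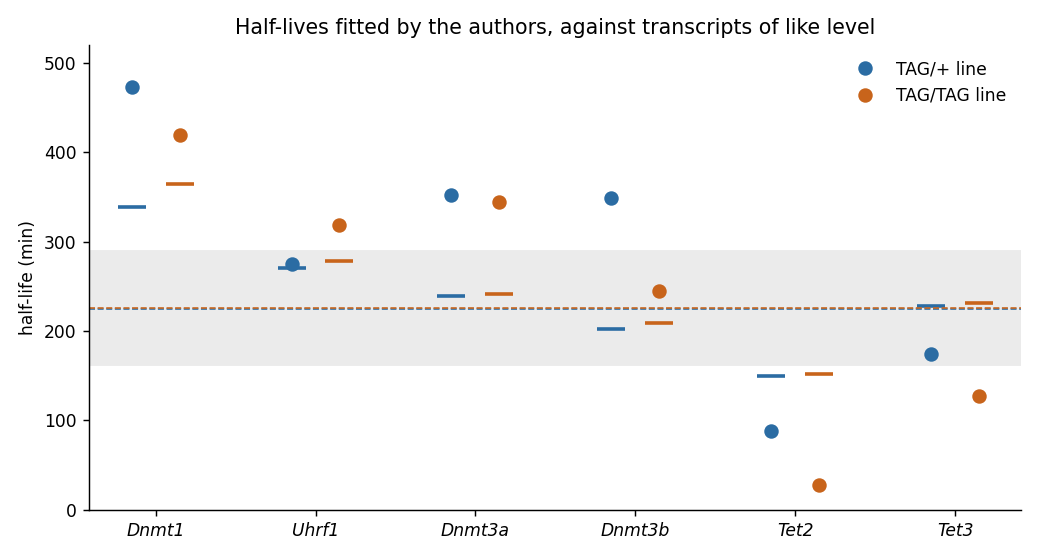
Half-lives in min of the 6 members with a value in the TAG/+ line (blue points) and the TAG/TAG line (orange points), with the median of transcripts of similar FPKM (short bars), the median of all transcripts (dashed lines) and the quartile range of the TAG/+ line (grey band). *Dnmt1*, *Uhrf1*, *Dnmt3a* and *Dnmt3b* lie above both medians, *Tet2* and *Tet3* below.

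Between the lines, 10.0% of transcripts had a half-life more than 1.5-fold longer in the TAG/TAG line and 10.7% one more than 1.5-fold shorter. *Tet2* was past that limit, with a 3.25-fold shorter half-life in TAG/TAG (log2 ratio -1.70), and 99.0% of transcripts differed less. In its class by FPKM, 34.7% of transcripts were past 1.5-fold in one direction or the other, and its RNA-seq level rested on 91 and 89 reads. The SLAM-seq reads behind its 2 fits were not analysed here. *Dnmt3b* was 1.42-fold shorter in TAG/TAG and *Tet3* 1.37-fold shorter. *Dnmt1* was 1.13-fold shorter, *Dnmt3a* 1.02-fold shorter and *Uhrf1* 1.16-fold longer. The median difference of all transcripts, whichever the direction, was 1.20-fold. *Dnmt1*, *Uhrf1* and *Dnmt3a* therefore differed less between lines than the median of all transcripts. In log2, the median difference within the class by FPKM was 0.1607 for *Dnmt1*, 0.1994 for *Uhrf1* and 0.2377 for *Dnmt3a*, whichever the direction. *Dnmt1* (log2 ratio -0.1741) and *Uhrf1* (0.2097) differed slightly more than the median of their class, and *Dnmt3a* (-0.03209) less.

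Level and half-life are set side by side for the single genes. *Dnmt3a* was 1.53-fold lower in level in TAG/TAG with half-lives of 352 and 344 min, and *Tet2* was nearly equal in level (2.36 and 2.15) with half-lives of 87.9 and 27.0 min. *Uhrf1* was longer-lived and higher in TAG/TAG, *Dnmt3b* shorter-lived and lower, and *Dnmt1* and *Tet3* shorter-lived but higher.

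**Figure D5:**
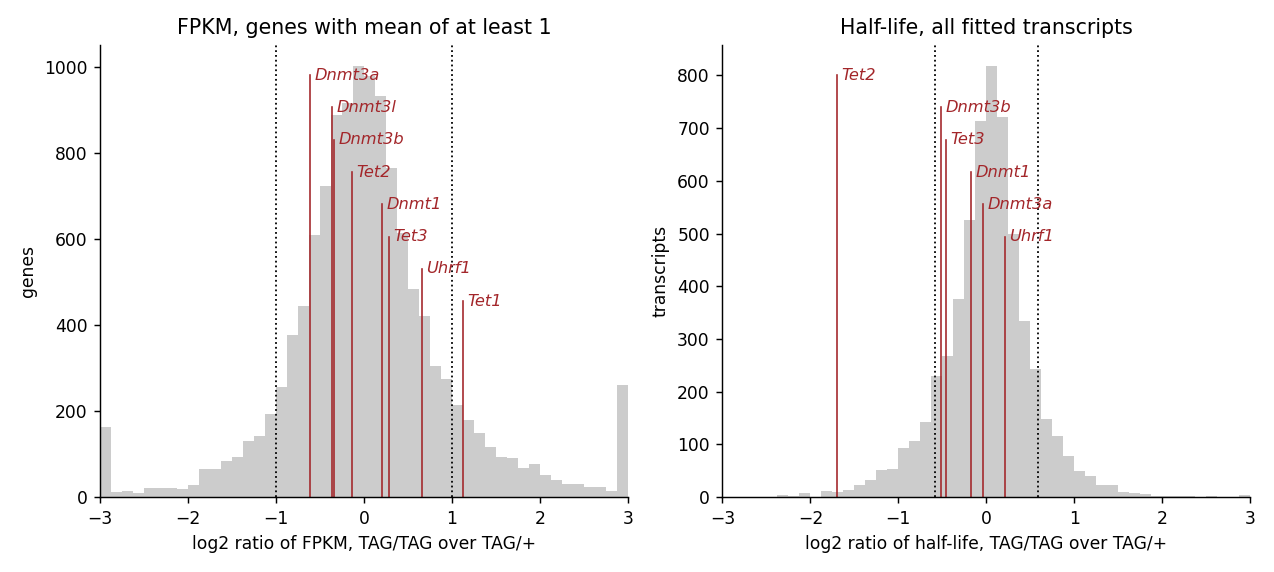
Log2 ratios of TAG/TAG over TAG/+ for FPKM (left, 12546 genes) and half-life (right, 5806 transcripts), as grey histograms with the members as red lines. The outermost bars hold all values beyond the axis, and dotted lines mark 2-fold for FPKM and 1.5-fold for half-life. *Tet1* (1.12, but 0.62 with a pseudocount of 1 and 0.87 with the longest coding length) is just past the FPKM limit and *Tet2* (-1.70) is far out in half-life.

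The gene whose 4 values (FPKM and half-life in both lines, on the log2 scale) were nearest to those of each member was looked up among 5144 genes with all 4 above 0. *Dnmt1* was nearest to *Arpc1a*, an actin-nucleation subunit (distance 0.21). *Uhrf1* was nearest to *Mybl2*, a transcription factor of cycling cells (0.29), with half-lives of 286 and 319 min. *Dnmt3a* was nearest to the nuclear export receptor *Xpo1* (0.15), *Dnmt3b* to the imprinted gene *Peg3* (0.23), and *Tet3* to *Cdyl*, a chromodomain corepressor (0.13). *Tet2* had no close neighbour. Its nearest was *Zfp429* at 0.62, with half-lives of 69.0 and 24.6 min.

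Genes that work with the members were then described from lists. Of 10 partners of maintenance methylation, 2 were more than 2-fold higher in TAG/TAG and 0 were lower, beside 11.7% and 8.67% of genes, with a median log2 FPKM ratio of 0.00. The shares over all genes for the lists below are the same ones, and 20.7% of all transcripts were past 1.5-fold in half-life in either direction. *Dppa3*, which restrains UHRF1 in oocytes, stood at 1.93 in TAG/+ (16 reads) and 12.7 in TAG/TAG (114 reads). *Zfp57*, which protects methylation at imprinted loci, stood at 7.67 and 23.0 (85 and 274 reads). Among 7 of these partners with half-lives, none differed more than 1.5-fold. They ranged from *Uhrf2*, the paralog of *Uhrf1* (106 and 120 min), to the ligase of Okazaki fragments *Lig1* (510 and 495 min). *Uhrf2* had shorter half-lives than *Uhrf1* (275 and 318 min) in both lines, and FPKM of 28.0 and 22.5.

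Of 10 genes of germline de novo methylation, including those of the piRNA pathway, 8 had an FPKM. *Tex15*, needed for piRNA-directed methylation, was the 1 past 2-fold, at 14.5 (TAG/+) and 35.1 (TAG/TAG), and its half-life was also longer in TAG/TAG, 226 and 391 min. *Setd2*, which writes a histone mark that guides DNMT3 enzymes, had half-lives of 175 and 83.9 min with FPKM of 73.2 and 82.4. *Mael*, of the piRNA pathway, was the longest-lived at 540 and 603 min. The median log2 FPKM ratio of this list was 0.18, with 7 of 8 genes on the higher side in TAG/TAG, as were 49.8% of genes with a mean FPKM of at least 1.

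Readers of the mark and genes for its removal were described in the same way. Of 7 methyl-CpG readers with an FPKM, 0 were past 2-fold. *Mbd3*, a subunit of the NuRD complex, had half-lives of 291 and 164 min. *Zbtb33* was the longest-lived reader, with 331 and 269 min. Of 11 genes for removal of oxidised or deaminated cytosine, 1 was past 2-fold in FPKM. This was the glycosylase *Neil1*, at 0.370 in TAG/+ (6 reads) and 3.55 in TAG/TAG (62 reads). Of the 10 with half-lives, 1 was more than 1.5-fold longer in TAG/TAG and 2 were shorter. *Tdg*, the glycosylase that excises the later products of TET oxidation, had 191 and 112 min, and the scaffold *Xrcc1* 287 and 83.3 min. *Gadd45a*, a stress gene linked to demethylation, had 82.3 and 149 min. Its paralog *Gadd45g* was the shortest-lived (50.9 and 35.3 min) and *Parp1*, of strand break repair, the longest-lived (492 and 500 min).

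Genes for the supply of cofactors and methyl groups follow. Of 7 TET partners and genes for 2-oxoglutarate supply with an FPKM, *Idh3a*, a subunit of a mitochondrial isocitrate dehydrogenase, was past 2-fold, at 23.4 and 11.4, and none of 4 half-lives was past 1.5-fold. The shortest-lived was *Cxxc5*, a CXXC-domain partner of TET2, with 176 and 175 min, and the longest-lived was *Idh1*, with 457 and 355 min. Of 7 genes for the methyl donor, *Mat2b*, the regulatory subunit of the synthase of S-adenosylmethionine, was past 2-fold at 25.8 and 11.5. The catalytic subunit *Mat2a* had short half-lives of 114 and 113 min, and *Ahcy*, which clears the product that inhibits methyltransferases, had long ones of 375 and 562 min.

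Since *Dnmt1* and *Uhrf1* are genes of S phase, 13 replication genes with an FPKM are given beside them. None was past 2-fold in FPKM, beside 20.3% of genes in either direction, and 11 of 13 were on the higher side in TAG/TAG, beside 49.8% of genes. The median log2 ratio was 0.20, beside 0.21 for *Dnmt1* and 0.66 for *Uhrf1*. The 13 half-lives of this list ranged from *Tyms* (82.2 and 74.1 min) to *Mcm6* (512 and 466 min), and *Rrm2* was past 1.5-fold, with 228 and 405 min.

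Marker lists of the cultures complete the comparison. Of 13 markers of undifferentiated spermatogonia, 5 were more than 2-fold higher in TAG/TAG, among them *Eomes* (0.272 and 5.95), *Bcl6b* (23.1 and 225) and *Etv5* (46.0 and 178), while 6 of the 13 were on the lower side, each by less than 2-fold. None of 6 markers of differentiating spermatogonia was past 2-fold, and 5 of 6 were on the lower side. Of 11 fibroblast markers, 10 were on the higher side in TAG/TAG and 1 on the lower side, with a median log2 ratio of 0.55. Of the 11, 4 were more than 2-fold higher in TAG/TAG, with *Pdgfrb* at 0.660 and 6.75. Of 8 Sertoli and Leydig cell markers, 4 had an FPKM. Of these, *Wt1* (2.51 and 19.7), *Gata4* (0.643 and 2.35) and *Sox9* (2.195 and 4.491) were more than 2-fold higher in TAG/TAG and *Star* (4.62 and 1.20) lower. Of 4 pluripotent cell markers, *Nanog* (2.92 and 1.07) and *Sox2* (18.0 and 7.33) were lower and *Esrrb* (5.49 and 11.7) higher. The part of these markers in the levels of the 8 genes was not tested.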

How the data were processed

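Starting files were 1 table of FPKM and 2 tables of half-lives in min. The authors deposited FPKM per gene symbol for 1 library per line. The submitters' processing notes name kallisto and DESeq2 for RNA-seq, without versions or roles. Half-lives were fitted by the authors from SlamDunk conversion rates with a first-order decay (nls in R), normalised to time 0, and technical replicates were collapsed. CRAC libraries were not analysed here.

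Whole reads were recovered as FPKM × mean length of all GENCODE M21 transcripts of the symbol, divided by the value of 1 read. This gave whole numbers (tolerance 0.02 reads) for 100% of 13884 genes in both libraries, and 20 genes had no length. On reads simulated for these genes with the same lengths, 100% were recovered, which checks the calculation but cannot check the lengths. Intervals are exact Poisson for reads and FPKM, and exact conditional binomial for folds (scipy). Log2 ratios used FPKM + 0.1. No test between lines was run. Python with pandas, numpy and matplotlib was used.

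Named genes were the 8 members. Of each other list, up to 3 genes past 2-fold in FPKM, up to 3 past 1.5-fold in half-life, and those with the shortest and longest mean half-life were named, as was the nearest gene of each member with all 4 values. A gene that this rule names is not reported here. The 50-base stretches were compared with all GENCODE M21 transcripts on both strands. Members and lists were chosen with earlier results of these data known.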

Additional observations from a re-analysis of the deposited data

How the results depend on the processing

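No paired analysis was possible because each line has 1 RNA-seq library and 1 fitted half-life per transcript, and no test was run. For the same reason no library could be left out. The number of members past 2-fold in FPKM, 1 (*Tet1*), was 0 with a pseudocount of 1, 0 among the 5 members with a mean FPKM of at least 5, and 3 with a threshold of 1.5-fold, where *Uhrf1* and *Dnmt3a* joined *Tet1*. It was 0 when FPKM was rescaled to the longest coding transcript, which lowers *Tet1* towards the pseudocount. It was 1 without a pseudocount, after centring on the median gene, over all genes and with scaling to the sum of recovered reads. The number past 1.5-fold in half-life, 1 (*Tet2*), was 0 among the 5 members with a mean FPKM of at least 5, which leaves out *Tet2*, and 1 under the other 3 alternatives. The number below the medians, 2, was 1 with that same minimum (*Tet3*) and 2 within classes of similar FPKM or in either line alone. With the longest coding transcript, 2 of the 8 members changed place in the order. The rescaled lengths and the recovered-read scaling were chosen after seeing the data. Directions of all 8 FPKM ratios were the same in every alternative that changes the ratio. Depth limits *Tet1*, *Dnmt3l* and *Tet2*, each with fewer than 100 reads per library.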
